A study of Homo sapiens with 9 samples.

Results

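The 9 genes described here encode junction and adhesion proteins of epithelial cells, and they were taken by symbol from the 36601 genes of the deposited count tables. They are the 5 claudins *CLDN3*, *CLDN4*, *CLDN6*, *CLDN7* and *CLDN10*, the 3 classical cadherins *CDH1*, *CDH2* and *CDH3*, and *EPCAM*. All 9 were found in both tables, each on a single row. They were measured in human extra-embryoids (hEEs), which are aggregates of wild-type ESI017 cells, a human embryonic stem cell line, that had been kept in an expanded-potential medium. The labels give their treatment as none. By the study's methods the cells were aggregated in microwells in a medium for spontaneous differentiation, with a ROCK inhibitor for the first day, and were moved on D3 to mIVC2 medium, so both libraries were taken after that change of medium. Structures with an inner and an outer compartment were picked on D4 or D6, pooled across wells and profiled as 1 single-cell library of transcript 3′ ends for each day. Same-day wells came from different clones and passages of the line but were pooled, so no replicate remains and no test could be run. Each interval in brackets is an exact 95% interval that covers counting error only. With 1 library for each day, a difference between days cannot be told from one between libraries. The study's methods report strong separation of the days, which the authors took as possible experimental variation and corrected by integration. The counts used here hold no such correction.

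Claudins are membrane proteins that form the strands of tight junctions and set which ions and solutes pass between cells. Classical cadherins hold neighbouring cells together at adherens junctions by binding like cadherins on the next cell and catenins inside the cell. EPCAM is an adhesion protein of many epithelia and of pluripotent stem cells that associates with CLDN7. When epiblast cells leave the epithelium at gastrulation they lose CDH1 and gain CDH2, which is the change commonly read as the epithelial-to-mesenchymal transition (EMT). The comparison of embryonic cells, *TFAP2A* cells, hypoblast cells and *HAND1* cells asks which junction genes each of them used.

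The D4 library held 10943 cells, of which 9151 were kept, and the D6 library held 11483, of which 10097 were kept. Kept cells lay between a lower and an upper limit on unique molecular identifiers (UMIs, each a counted transcript molecule), taken from the study's methods, and had at most 10% mitochondrial UMIs. Cells were grouped by gates on raw UMIs of genes outside the 9. The embryonic gate required at least 5 UMIs of *POU5F1*, at least 1 of *SOX2* and at most 2 of *FN1*, and held 3716 cells at D4 and 5054 at D6. Its cells with at least 2 UMIs of *TFAP2A*, a transcription factor of amnion and surface ectoderm, numbered 81 and 350. The hypoblast gate required at least 3 UMIs of *FN1*, 0 of *SOX2* and at most 5 of *POU5F1*, and held 4061 and 3567 cells. Cells with at least 2 UMIs of *HAND1*, a mesoderm factor, and at least 1 of *GYPE* or *GYPB* numbered 2 at D4 and 78 at D6, and are called HAND1 cells. Of the 78, 32 also met the hypoblast gate, 2 the embryonic gate and 44 neither. Median depths were 15157 and 14225 UMIs in the embryonic gate but 11012 and 10902 in the hypoblast gate, so shares of cells with a UMI are also given after each cell was thinned to the lower UMI limit. No gate was met by 1374 kept cells on D4 and by 1432 on D6. The libraries shared 40 cell barcodes, 27 of them among kept cells. No doublet caller was run; 358 cells at D4 and 423 at D6 had markers of both lineages and fell outside both gates.

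Markers outside the gate rules were read in each gate. In CPM, the UMIs of a gene in each 1000000 UMIs of the same cells, the summed level of 8 hypoblast markers was 161 in the embryonic gate and 3048 in the hypoblast gate at D4, and 184 and 15212 at D6. The summed level of 5 embryonic markers was 1994 and 684 CPM at D4 in the same order, and 1910 and 640.0 at D6. In the TFAP2A cells of D6, 7 of 8 amnion markers had a UMI, as in the rest of the gate, with a sum of 119 CPM against 26.2. *VTCN1* was at 0 in both, and *GABRP* was at 0.974 CPM against 1.12. The TFAP2A cells of D4 had 0 UMIs of *ISL1*, *GABRP* and *VTCN1*, and their sum was 46.3 CPM against 18.2 in the rest. The same list summed to 117 CPM in the hypoblast gate of D6 and 168 in the HAND1 cells, so it does not set the TFAP2A cells apart from those. In the HAND1 cells of D6 all 8 mesoderm markers had a UMI, as in the hypoblast gate, and 7 had one in the embryonic gate. The list summed to 4012 CPM in the HAND1 cells, 534 in the embryonic gate and 897 in the hypoblast gate. *VIM* alone gave 3277, 518 and 657 CPM of these sums, and it stood at 1166 CPM in the embryonic gate of D4. *MESP1* stood at 209 CPM in the HAND1 cells against 1.78 in the embryonic gate and 5.10 in the hypoblast gate. *TBX3* alone of the list was lower than in the hypoblast gate, at 96.1 against 132.5. The 8 hypoblast markers summed to 1852 CPM in the HAND1 cells, between the gates, and *APOA1* alone gave 1111 of it. None of the 7 trophoblast markers had a UMI in the HAND1 cells.

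Levels are in the same unit throughout. Each molecule is counted once at its 3′ end, so levels of different genes are on a scale that needs no division by length, although genes may still differ in how well they are captured. A gene was called past 2-fold when its levels differed by at least that factor and it passed a floor of 20 UMIs over both groups and 10 CPM in at least 1 of them. Where a gene past the floor was under 10 CPM in 1 group, the floor set the direction of its call.

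**Figure D1:**
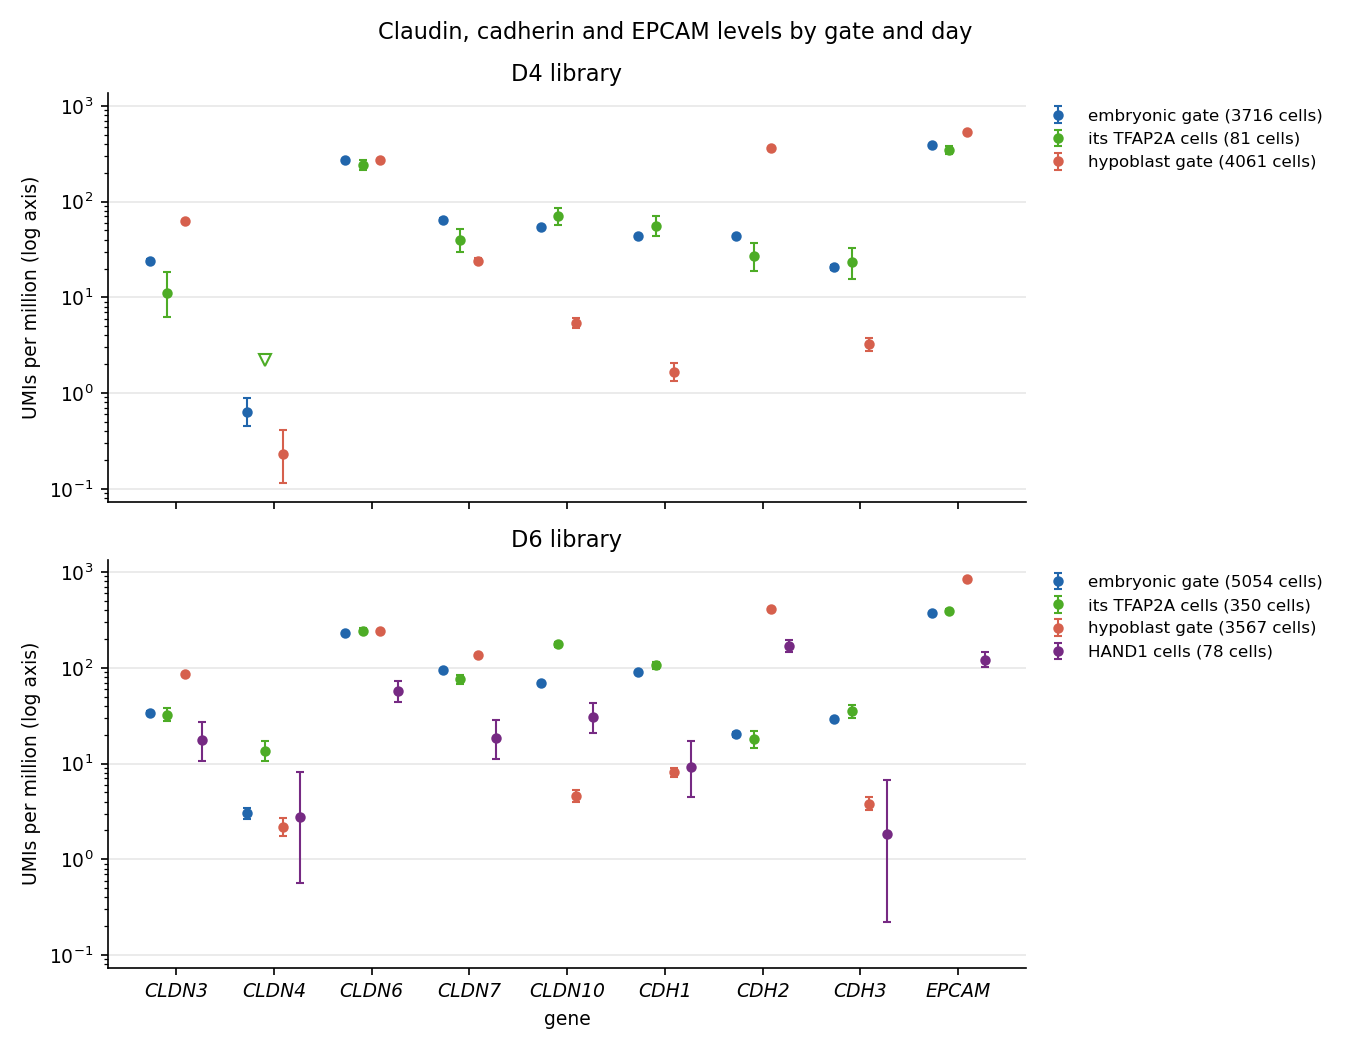
Level of each of the 9 genes in CPM, on a log axis, in the gates of the D4 library and the D6 library. Points are levels, bars are exact 95% Poisson intervals, and the open triangle is the upper limit of 2.24 CPM that 0 UMIs of *CLDN4* allow in the TFAP2A cells of D4, counted over the group. *CDH2* stands highest in the hypoblast gate on both days, and *CLDN6* and *EPCAM* stand high in every gate except the HAND1 cells.

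*CDH1*, which encodes E-cadherin, was an embryonic-gate gene. Its level in the embryonic gate was 43.6 CPM [41.9, 45.3] at D4 and 89.8 [87.7, 92] at D6. In the hypoblast gate it was 1.67 [1.33, 2.08] at D4 and 8.09 [7.25, 9.0] at D6. The embryonic level was therefore 26.1 times the hypoblast level at D4 and 11.1 times at D6. *CDH1* UMIs were seen in 45.2% of embryonic-gate cells at D4 and 68.2% at D6, and in 12.4% and 26% of them after thinning.

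*CDH2*, which encodes N-cadherin, had the opposite order. Its level was 359 CPM [354, 365] in the hypoblast gate at D4 and 415 [409, 422] at D6, and 95.4% and 96.6% of those cells had a UMI of it. The embryonic gate had 43.3 CPM [41.6, 45.0] at D4 and 20.1 [19.1, 21.2] at D6. The log2 ratio of embryonic over hypoblast gate was -3.05 [-3.11, -2.99] at D4 and -4.37 [-4.44, -4.29] at D6. The hypoblast cells thus held most of the N-cadherin RNA on both days, with an epithelial adhesion gene, *EPCAM*, at its highest level in the same cells.

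*CDH3*, which encodes P-cadherin and lies next to *CDH1*, followed *CDH1*. It stood at 20.5 CPM [19.4, 21.7] in the embryonic gate at D4 and 28.9 [27.7, 30.2] at D6. The hypoblast gate had 3.22 [2.73, 3.77] and 3.81 [3.24, 4.45]. The embryonic level was 6.37 and 7.60 times the hypoblast level.

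Between the D4 and D6 libraries the cadherins of the embryonic gate moved apart. *CDH1* was 2.06 times as high at D6, a log2 ratio of 1.04 [0.98, 1.11], and *CDH2* was 0.465 times as high, a log2 ratio of -1.10 [-1.20, -1.01]. They were the 2 of the 9 genes past 2-fold between the days in this gate, where 0.276% of the 8697 genes past the floor were at least 2-fold higher and 0.333% at least 2-fold lower. The median log2 ratio of the 8 members past the floor was 0.43 and that of all genes 0.03. In the hypoblast gate *CDH2* changed little, with a log2 ratio of 0.21 [0.18, 0.24]. *CDH1* there had a log2 ratio of 2.27 [1.92, 2.64] but stayed under the floor.

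In the cadherin RNA of the embryonic gate at D4 neither gene led, with *CDH2* giving 49.8% [48.4, 51.2] of the UMIs of *CDH1* and *CDH2* together. At D6 that share was 18.3% [17.5, 19.2]. Among embryonic-gate cells of D4, 25.4% had UMIs of *CDH1* alone, 22.5% of *CDH2* alone and 19.8% of both. At D6 the same classes held 52.6%, 7.18% and 15.7% of cells. Of the hypoblast-gate cells, 93.6% at D4 and 88.6% at D6 had UMIs of *CDH2* alone, while 1.80% and 8.05% had both.

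**Figure D2:**
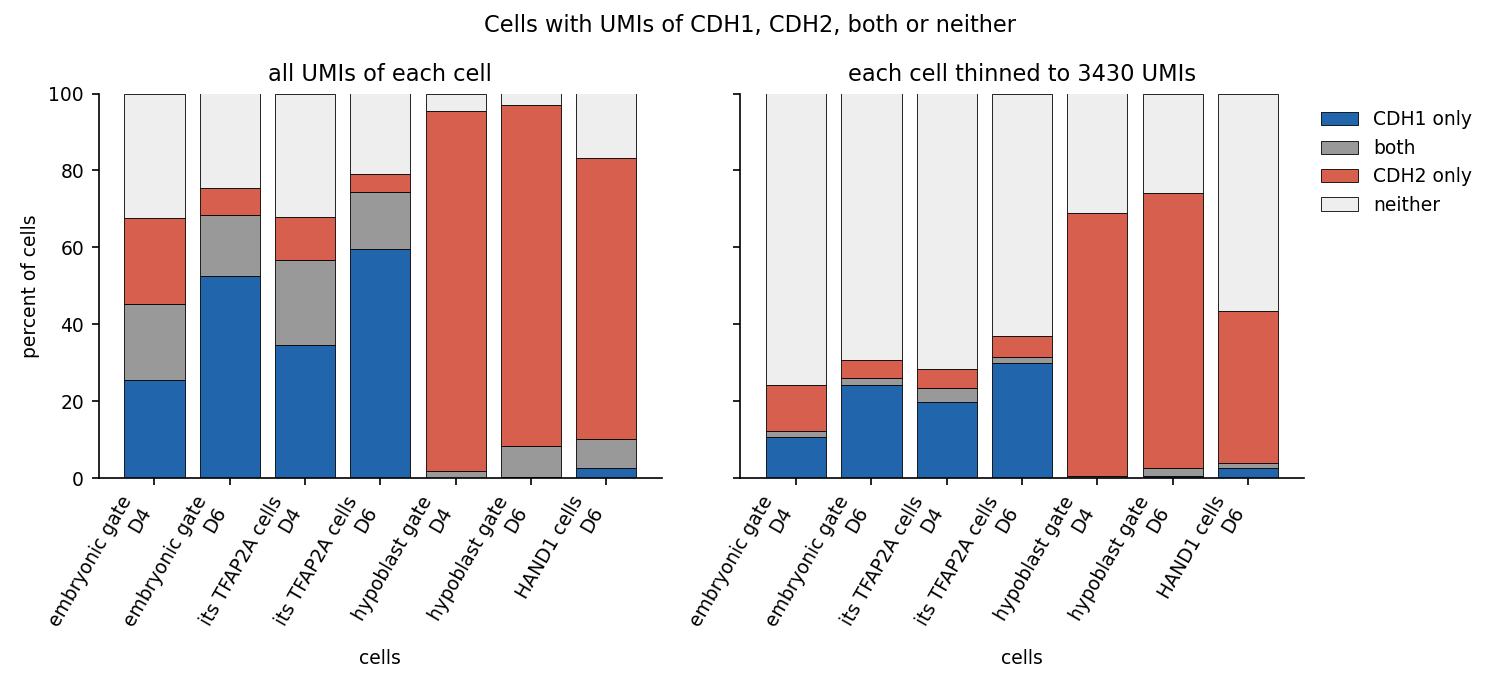
Percent of cells with UMIs of *CDH1* only, of *CDH2* only, of both or of neither, in each gate and day, from all UMIs of each cell and after thinning each cell to the lower UMI limit. The *CDH2* only class of the embryonic gate shrinks from 22.5% at D4 to 7.18% at D6 from all UMIs, and from 11.8% to 4.85% after thinning.

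Droplets also hold free RNA, so the low levels were set beside the markers of the other gate. In the embryonic gate *CDH2* stood at 12.1% of its hypoblast-gate level at D4 and 4.85% at D6, while the 8 hypoblast markers ranged from 1.28% for *APOA1* to 70.2% for *PDGFRA* at D4 and from 0.752% for *APOA1* to 13.5% for *SOX17* at D6. *SOX17* was at 12.1% at D4, as *CDH2* was. *APOA1*, an apolipoprotein gene and the lowest of the list on both days, still had a UMI in 18.2% and 61.6% of embryonic-gate cells. Embryonic-gate cells with 0 UMIs of *FN1* and *APOA1* had *CDH2* at 40.8 CPM [38.7, 43.0] at D4, in 2301 cells, and 20.4 [18.5, 22.5] at D6, in 1469 cells. These values were close to those of the whole gate. In the hypoblast gate *CDH1* stood at 3.84% of its embryonic-gate level at D4 and 9.01% at D6, while the 5 embryonic markers ranged from 1.67% for *UTF1* to 86.6% for *LIN28A* at D4 and from 3.88% to 80.8% for the same genes at D6. *UTF1*, a pluripotency gene, was the only one of the 5 below *CDH1*. The part of free RNA in these levels was not tested. Among hypoblast-gate cells with 0 UMIs of *POU5F1* and *UTF1*, the *CDH1* level was 1.94 CPM [1.41, 2.61] on D4 and 7.62 [6.61, 8.74] on D6. *CDH1* had a UMI in 1.90% and 8.33% of all hypoblast-gate cells, and *UTF1* in 1.31% and 3.06%.

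*CLDN6* had the highest level of the 5 claudins in every gate of both days. Its level was 274 CPM [269, 278] in the embryonic gate and 273 [269, 278] in the hypoblast gate at D4. At D6 the values were 230 [227, 233] and 242 [237, 246], a log2 ratio of embryonic over hypoblast gate of -0.07 [-0.11, -0.04], and this ratio turned to 0.09 when levels were scaled without mitochondrial and ribosomal genes. *CLDN6* gave 65.6% of the UMIs of the 5 claudins in the embryonic gate at D4 and 53.4% at D6, and 74.8% and 51.3% in the hypoblast gate.

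*CLDN10*, whose product can form channels for ions between cells, was an embryonic-gate claudin. The embryonic gate had 54.3 CPM [52.5, 56.3] at D4 and 69.9 [68.0, 71.8] at D6. The hypoblast gate had 5.44 [4.8, 6.14] and 4.6 [3.97, 5.30], so the embryonic level was 9.99 and 15.2 times as high. A UMI was seen in 55.4% of embryonic-gate cells on each day. *CLDN10* overlaps *CLDN10-AS1* and *DZIP1*, and its reads can be told from theirs only as far as strand was used in counting.

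*CLDN3*, a barrier-forming claudin, was higher in the hypoblast gate. It stood at 62.3 CPM [60.1, 64.6] there at D4 and 85.4 [82.7, 88.3] at D6. The embryonic gate had 23.9 [22.7, 25.2] and 34.1 [32.8, 35.5], log2 ratios of -1.38 [-1.48, -1.29] and -1.33 [-1.40, -1.25]. Among D6 cells with 10000 to 20000 UMIs the ratio was -0.96, short of 2-fold.

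*CLDN7* was higher in the embryonic gate at D4 and in the hypoblast gate at D6. At D4 it was at 64.9 CPM [62.8, 67.0] in the embryonic gate and 24.1 [22.7, 25.5] in the hypoblast gate. At D6 it was at 93.8 [91.6, 96.0] in the embryonic gate and 137 [134, 141] in the hypoblast gate. The log2 ratio of embryonic over hypoblast gate went from 1.43 [1.33, 1.52] to -0.55 [-0.60, -0.50]. Within the hypoblast gate the D6 level was 5.68 times the D4 level, a log2 ratio of 2.51 [2.42, 2.60], and the share of cells with a UMI went from 19.8% to 71.1%, or from 6.67% to 36.0% after thinning. It was the only one of the 9 past 2-fold and past the floor between the days in this gate, where 2.64% of 8848 genes were at least 2-fold higher and 1.03% at least 2-fold lower. *CLDN7* overlaps *ELP5* in the genome, and its reads can be told from those of *ELP5* only if strand was used in counting.

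*CLDN4* was close to absent at D4, with 0.640 CPM [0.451, 0.882] in the embryonic gate and 0.230 [0.115, 0.412] in the hypoblast gate. At D6 the levels were 3.03 [2.65, 3.46] and 2.18 [1.75, 2.68]. These values lay under the floor, and 3.94% of embryonic-gate cells of D6 had a UMI.

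*EPCAM* was the most abundant of the 9 in both gates. The embryonic gate had 389 CPM [384, 394] at D4 and 377 [373, 382] at D6. The hypoblast gate had 529 [522, 535] at D4 and 853 [844, 862] at D6, 1.61 times as much at the later day. The log2 ratio of embryonic over hypoblast gate was -0.44 [-0.47, -0.42] at D4 and -1.18 [-1.20, -1.15] at D6.

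Between the gates, 4 of the 9 genes were at least 2-fold higher in the embryonic gate at D4 (*CDH1*, *CLDN10*, *CDH3* and *CLDN7*) and 2 at least 2-fold lower (*CDH2* and *CLDN3*). Among the 9209 genes past the floor, 7.46% were that much higher and 11.1% that much lower. At D6, 3 were higher (*CLDN10*, *CDH1* and *CDH3*) and 3 lower (*CDH2*, *CLDN3* and *EPCAM*), against 10.5% and 13.0% of 9500 genes. *CDH1*, *CLDN10* and *CDH3* passed the floor through the embryonic gate alone on both days, so the floor set their direction. The median log2 ratio of the 8 members past the floor was 0.72 at D4 and -0.31 at D6.

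**Figure D3:**
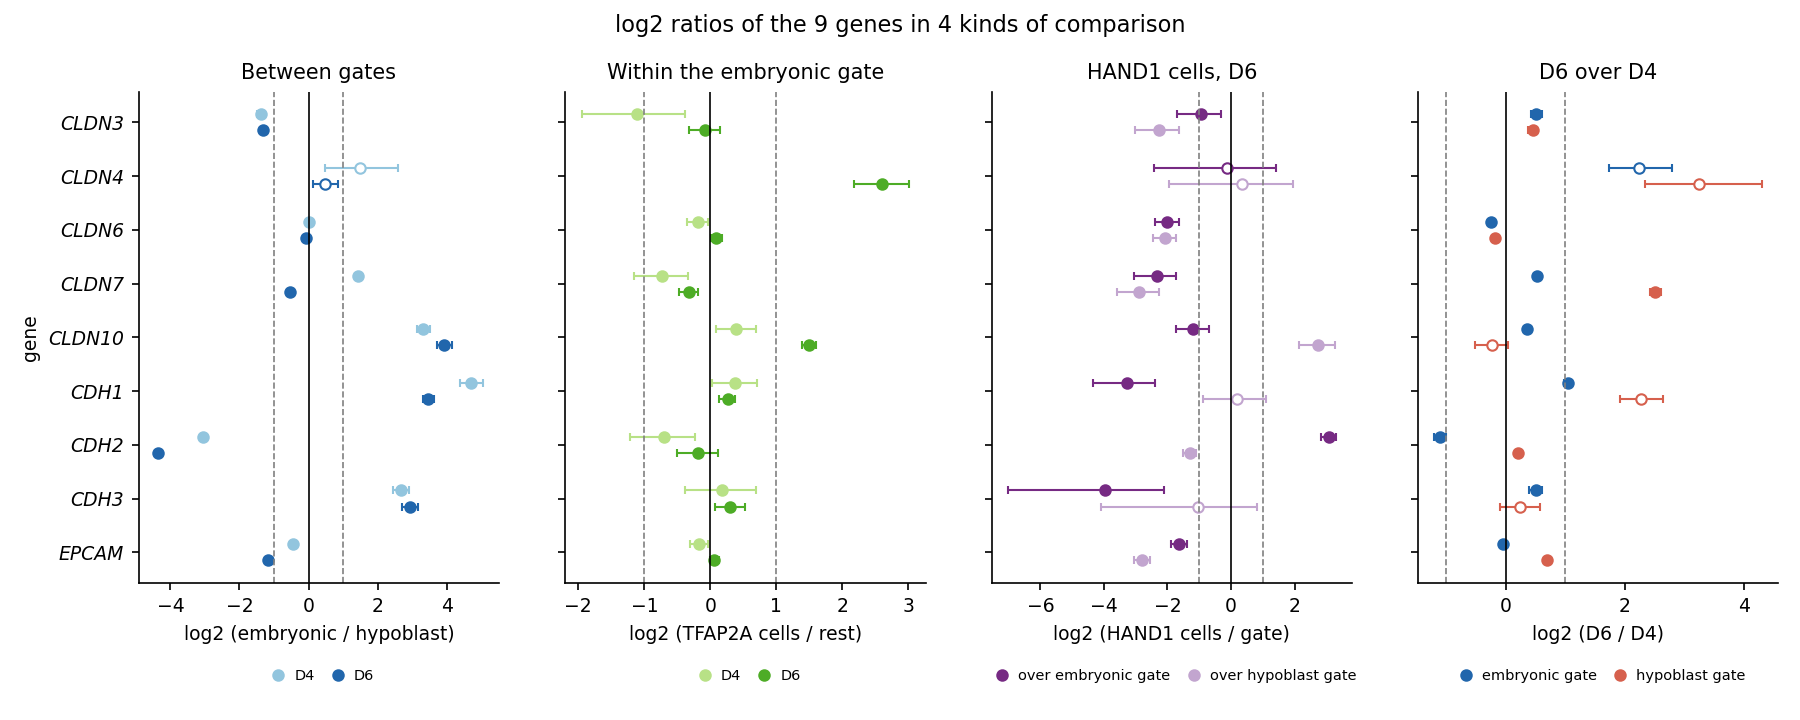
The log2 ratios of the 9 genes between the embryonic and hypoblast gates, between TFAP2A cells and the rest of the embryonic gate, between HAND1 cells and each gate at D6, and between D6 and D4. Bars are exact 95% conditional binomial intervals, open points lie under the floor, dashed lines mark a 2-fold difference, and *CLDN4* in the TFAP2A cells of D4, with 0 UMIs, is not drawn. *CDH2* is the only gene above the upper dashed line in HAND1 cells over the embryonic gate, at 3.07, and *CLDN4* and *CLDN10* are the only ones above it in the TFAP2A cells of D6.

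In the TFAP2A cells of D6, 2 of the 9 genes were at least 2-fold higher than in the rest of the embryonic gate, where 0.619% of 8884 genes past the floor were that much higher and 0.495% that much lower. *CLDN4* stood at 13.6 CPM [10.6, 17.2] against 2.25, a log2 ratio of 2.60 [2.17, 3.01], and 15.7% of the 350 cells had a UMI. It passed the floor through the TFAP2A cells alone, so the floor set its direction. *CLDN10* stood at 175 CPM [164, 187] against 62.1, a log2 ratio of 1.5 [1.39, 1.6]. The other 7 had log2 ratios between -0.33 for *CLDN7* and 0.30 for *CDH3*. *CDH1* was at 106 CPM [97.2, 115] and *CDH2* at 17.9 [14.5, 22.0], so E-cadherin led in the TFAP2A cells of the gate as in its rest. *CDH2* gave 14.5% [11.8, 17.4] of their UMIs of *CDH1* and *CDH2*, against 18.6% [17.8, 19.5] in the rest. These values hold within a gate that requires *SOX2*. A further 84 kept cells of D6 had at least 2 UMIs of *TFAP2A* and met no gate. In them *CDH2* was at 88.5 CPM [73.2, 106] and gave 42.9% [37.0, 49.0] of the UMIs of *CDH1* and *CDH2*, and *CLDN10* was at 849 CPM [801, 900]. Only 36.9% of the 84 cells had a UMI of *CDH2*, and 8 of them held 48.3% of its UMIs. For *CLDN10*, 25 of the 84 held 91.8%. Among all kept cells of D6 that met no gate, *CDH2* was at 191 CPM and its share was 78.6%.

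The higher *CLDN10* level came from few cells. A UMI of *CLDN10* was seen in 54.3% of the TFAP2A cells of D6 and in 55.4% of the rest. In the TFAP2A cells, 20 of the 350 had at least 10 UMIs of it and held 67.5% of its UMIs, with a maximum of 58 in 1 cell. No cell of D4 reached 10. By contrast *CLDN4* had at most 3 UMIs in a cell, so its difference lay in how many cells had a UMI.

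In the 81 TFAP2A cells of D4 neither gene was past 2-fold and past the floor. *CLDN10* stood at 70.9 CPM [57.4, 86.7] beside 53.9 in the rest, with a log2 ratio of 0.39 [0.08, 0.69]. *CLDN4* had 0 UMIs in these cells, which allows up to 2.24 CPM when 3 counts over the group are taken as the bound, and its level in the rest was 0.655. *CLDN3* was the only one of the 9 past 2-fold, at 11.2 CPM [6.27, 18.5] from 15 UMIs against 24.2, a call that was lost with no cell filter, with 0.514% of 8747 genes at least 2-fold higher and 0.800% at least 2-fold lower.

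The levels were also read by the number of *TFAP2A* UMIs in embryonic-gate cells of D6. Cells with more than 7 of these UMIs numbered under 20 and formed no bin, so the values below do not cover them. *CLDN10* was at 59.8 CPM in cells with 0 UMIs of *TFAP2A*, 93.5 with 1, 142 with 2 to 3 and 243 with 4 to 7. The counting intervals of these bins did not overlap, but they leave out the spread between cells. With 67.5% of the *CLDN10* UMIs of the TFAP2A cells in 20 of 350 cells, they do not show that the bins differ. *CLDN4* was at 2.13, 3.92, 12.9 and 16.3 in the same bins, where the first 2 intervals overlapped, as did the last 2. A UMI of *CLDN10* was seen in 55.7%, 52.6%, 55.6% and 50% of the cells of these bins. *CLDN7* was at 96.0, 83.2, 77.7 and 71.0. Its intervals in the bins with a *TFAP2A* UMI overlapped, at [75.3, 91.8], [68.5, 87.8] and [58.5, 85.4]. The share of cells with a UMI of *CLDN7* was 65.8%, 63.4% and 69.8% in those bins, with no steady fall. Median depths of the bins lay between 13692 and 14298 UMIs.

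**Figure D4:**
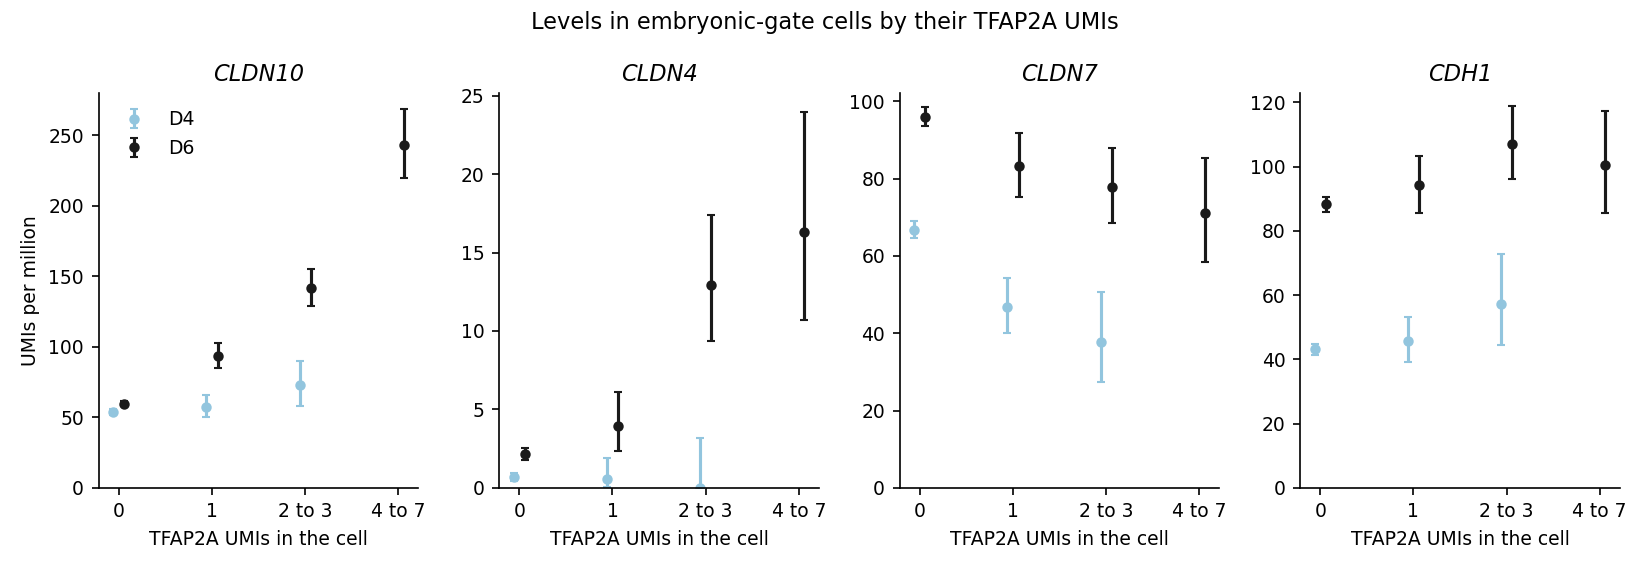
Level in CPM of *CLDN10*, *CLDN4*, *CLDN7* and *CDH1* in embryonic-gate cells grouped by their number of *TFAP2A* UMIs, at D4 and D6, with exact 95% Poisson intervals; bins with under 20 cells are not drawn. *CLDN10* at D6 goes from 59.8 to 243 across the bins, whereas at D4 its 3 bins lie between 53.7 and 72.8.

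The start regions of *CLDN10* and *CLDN4*, the members that were higher in the TFAP2A cells of D6, and of *CLDN3*, the neighbour of *CLDN4* that was not, are printed from RefSeq (GRCh38.p14). Each runs from 250 bases before a start site to 50 after it, 5′ to 3′ on the gene's strand, with matches to GCCNNNGGC in capitals. That motif is the same on both strands and is the consensus bound by the AP-2 family to which TFAP2A belongs. *CLDN10* has 2 start sites in the table, at chr13:95433505-95433804 and chr13:95552470-95552769 on the plus strand, which counting at 3′ ends does not tell apart. *CLDN4* lies at chr7:73830746-73831045 on the plus strand and *CLDN3* at chr7:73770221-73770520 on the minus strand.
CLDN10 start 1: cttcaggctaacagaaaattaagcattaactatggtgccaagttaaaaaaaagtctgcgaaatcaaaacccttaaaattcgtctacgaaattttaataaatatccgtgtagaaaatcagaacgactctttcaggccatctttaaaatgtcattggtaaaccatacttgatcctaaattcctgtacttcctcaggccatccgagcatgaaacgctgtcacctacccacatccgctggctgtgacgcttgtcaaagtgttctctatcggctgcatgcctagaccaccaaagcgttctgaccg
CLDN10 start 2: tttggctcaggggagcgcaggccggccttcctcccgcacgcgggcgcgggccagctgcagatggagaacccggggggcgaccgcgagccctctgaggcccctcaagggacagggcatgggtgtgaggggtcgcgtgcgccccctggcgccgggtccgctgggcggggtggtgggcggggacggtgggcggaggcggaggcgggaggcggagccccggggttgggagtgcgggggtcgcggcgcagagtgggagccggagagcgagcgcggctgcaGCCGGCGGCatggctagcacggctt
CLDN4: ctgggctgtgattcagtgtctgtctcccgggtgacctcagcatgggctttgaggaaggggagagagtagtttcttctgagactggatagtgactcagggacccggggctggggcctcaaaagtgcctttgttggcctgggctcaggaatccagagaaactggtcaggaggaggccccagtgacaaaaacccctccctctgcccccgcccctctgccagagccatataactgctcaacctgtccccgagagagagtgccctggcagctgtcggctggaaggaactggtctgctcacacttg
CLDN3: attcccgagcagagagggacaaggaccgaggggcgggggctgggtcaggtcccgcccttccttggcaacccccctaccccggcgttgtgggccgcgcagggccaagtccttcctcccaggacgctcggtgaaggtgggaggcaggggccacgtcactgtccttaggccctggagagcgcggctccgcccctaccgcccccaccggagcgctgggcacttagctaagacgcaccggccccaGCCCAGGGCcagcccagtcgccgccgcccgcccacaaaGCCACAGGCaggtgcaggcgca
The motif matched 0 times at the first *CLDN10* start, 1 time at the second, 0 times in *CLDN4* and 2 times in *CLDN3*. It was found in 23.2% of 35116 promoters of the same length. Of the other members with an entry, *CLDN6* had 1 match, and *CLDN7* and *CDH2*, with 2 start sites each, had 0. *CDH1*, *CDH3* and *EPCAM* had no entry. The E-box CAGGTG, read on both strands, is bound by SNAI and ZEB repressors. It was found 5 times at the second start of *CLDN7*, 1 time each in *CLDN3* and *CLDN6* and 0 times in the other printed or searched regions, against 20.6% of all promoters with at least 1.

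In the genome (GRCh38.p14) the genes lie on 6 chromosomes. *CLDN3* (chr7:73768997-73770270) and *CLDN4* (chr7:73830996-73832690) lie 60725 bases apart with 0 genes between them, and *CLDN3* was the higher of the pair in every gate but the 2 HAND1 cells of D4, which had neither. *CDH3* (chr16:68645310-68733771) ends 3520 bases before *CDH1* (chr16:68737292-68835537), also with 0 genes between. *CLDN6* is at chr16:3014712-3018183, *CLDN7* at chr17:7259903-7263213, *CLDN10* at chr13:95433755-95579759, *CDH2* at chr18:27932879-28177130 and *EPCAM* at chr2:47369311-47387020. *CLDN3*, *CLDN4* and *CLDN6* have close paralogs within the family, and reads that could not be assigned to a single copy may be missing from their counts.

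In the HAND1 cells of D6 the cadherins stood in the reverse order of that in the embryonic gate. *CDH2* was at 169 CPM [145, 195], 8.39 times the level in the embryonic gate, and 80.8% of the 78 cells had a UMI, or 41.0% after thinning. *CDH1* was at 9.24 [4.43, 17.0] from 10 UMIs, a log2 ratio to the embryonic gate of -3.28 [-4.34, -2.40]. *CDH2* gave 94.8% [90.7, 97.5] of the UMIs of *CDH1* and *CDH2*.

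The epithelial members had low levels in the same cells. *EPCAM* was at 122 CPM [102, 145], with a UMI in 43.6% of cells against 98.4% in the embryonic gate and 99.1% in the hypoblast gate. *CLDN6* was at 57.3 [43.9, 73.4], *CLDN7* at 18.5 [11.3, 28.5] and *CDH3* at 1.85 [0.224, 6.67] from 2 UMIs. In all, 6 of the 9 genes were at least 2-fold lower than in the embryonic gate and 1 at least 2-fold higher, where 9.62% of 9596 genes past the floor were that much lower and 11.8% that much higher. The median log2 ratio of the 8 members past the floor was -1.82, against 0.06 for all genes. *CDH1* and *CDH3* passed it through the embryonic gate alone, so the floor set their direction. *CLDN3*, at 17.5 CPM [10.6, 27.4], had a log2 ratio of -0.96 [-1.69, -0.31].

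Of the 33 UMIs of *CLDN10* in the HAND1 cells, 1 cell, which also met the embryonic gate, held 26. Without the cells that met another gate, *CLDN10* was at 7.35 CPM [2.00, 18.8] and its log2 ratio to the embryonic gate went from -1.20 to -3.25. After thinning it was -0.66, short of 2-fold.

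Because 32 of the HAND1 cells also met the hypoblast gate, where *CDH2* is high in its own right, the HAND1 cells were read apart. *CDH2* was at 174 CPM [141, 213] in the 44 cells of neither gate and 169 [135, 208] in the 32 of the hypoblast gate. *EPCAM* was at 49.6 [32.7, 72.2] in the former and 186 [151, 228] in the latter, a log2 ratio of -1.91 [-2.58, -1.28]. That interval leaves out the spread between cells. In the 44 cells, 4 held 63% of the *EPCAM* UMIs, and in the 32 cells, 4 held 48.9%. A UMI of *EPCAM* was seen in 29.55% of the 44 and 59.38% of the 32. Against the whole hypoblast gate, HAND1 cells had a lower *CDH2* level, with a log2 ratio of -1.30 [-1.51, -1.09], and lower *EPCAM*, at -2.81 [-3.06, -2.56]. *CDH1* did not differ beyond its counting interval between these groups, at 0.19 [-0.88, 1.09]. The 8 hypoblast markers summed to 1352 CPM in the 44 cells and to 2514 in the 32, of which *APOA1* gave 760 and 1564. The part of hypoblast RNA in the values of these cells was not tested. At D4 the 2 HAND1 cells had 4 UMIs of *CDH2*, 1 of *CLDN6* and none of the other 7 genes, and no comparison was made.

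Other junction genes and regulators were read from 6 lists. Of 9 EMT transcription factors, 5 passed the floor between HAND1 cells and the embryonic gate. Those named here passed through their level in HAND1 cells alone, so their direction was set by the floor. *SNAI2* was at 28.6 CPM against 0.227, *ZEB2* at 44.3 against 1.20 and *ZEB1* at 27.7 against 1.28; all are repressors of *CDH1*. *SNAI2* also stood on the mesoderm marker list. *TWIST1*, another such factor, was at 37.0 in HAND1 cells and 0.855 in the embryonic gate, but at 63.3 in the hypoblast gate of D6 and 23.4 in that of D4. It was the only factor of the list past the floor between the gates.

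Of 16 tight junction partners, 15 passed the floor in the HAND1 comparison, 8 of them at least 2-fold lower and 1 higher. Of all 9596 genes past the floor, 9.62% were that much lower and 11.8% that much higher. *MARVELD3*, a tight junction membrane protein, was at 4.62 CPM against 39.0, and the scaffold genes *TJP3* and *CGN* were at 0.924 against 10.4 and 2.77 against 13.1. In HAND1 cells these levels came from 5 UMIs of *MARVELD3*, 1 of *TJP3* and 3 of *CGN*. The log2 ratio of *CGN* was -2.24 [-4.52, -0.69], an interval that reaches differences short of 2-fold. *CGNL1*, a relative of *CGN*, was higher, at 117 against 23.7, with 48.45 in the hypoblast gate of D6. Of 13 epithelial regulators 5 passed the floor and 3 were lower. The splicing factor *ESRP1* was at 7.39, from 8 UMIs, against 67.6, and the protease inhibitor *SPINT1* at 5.54, from 6 UMIs, against 43.8. Of 7 desmosome genes 5 passed and none was past 2-fold, with log2 ratios from -0.53 for *DSG2* to 0.82 for *DSC2*. Of 16 other cadherins and catenins 6 passed the floor and 2 were higher in HAND1 cells, and of 14 other claudins 2 passed and 1 was higher. *CDH11*, a mesenchymal cadherin, was at 184 CPM against 2.46 and *CDH24* at 32.3 against 5.39. *CLDN11* was at 79.4 against 16.7, above the level of *CLDN6* in the same cells, but the hypoblast gate of D6 had 70.6. *CDH11* and *CDH24* passed the floor through the HAND1 cells alone. *MARVELD3*, *TJP3*, *CGN*, *ESRP1* and *SPINT1* passed it through the embryonic gate alone. For all of these the floor set the direction.

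Between the gates at D6, 4 of 5 desmosome genes past the floor were at least 2-fold lower in the embryonic gate, among them the plaque gene *DSP* at 74.9 CPM against 352 and *PERP* at 79.4 against 348. Of 15 tight junction partners past the floor 3 were lower, *CRB3*, *OCLN* and *CGNL1*, and 1 higher, *MARVELD3* at 39.0 against 11.5. Of all 9500 genes past the floor, 13.0% were that much lower and 10.5% that much higher, so the partner counts do not set these genes apart. *CRB3*, a polarity protein, was at 13.8 in the embryonic and 67.1 in the hypoblast gate, and *OCLN*, which encodes occludin, at 23.1 and 64.8. At D4 the counts were the same, 4 of 5 desmosome genes lower, and 3 partners lower and 1 higher of 14. The shares of all 9209 genes were 11.1% lower and 7.46% higher. Among other claudins, *CLDN11* and *CLDN19* were at least 2-fold lower in the embryonic gate at D6, at 16.7 against 70.6 and 6.95 against 16.8, and at D4 *CLDN19* was. Of the cadherins and catenins, *CDH8* and *JUP* were lower on both days, at 3.54 against 23.7 and 27.3 against 67.4 at D6. Of the epithelial regulators *OVOL2* and *SPINT2* were lower on both days, with *SPINT2* at 275 against 914 CPM at D6. *CDH8*, *CLDN19* and *OVOL2* passed the floor through the hypoblast gate alone, so the floor set their direction.

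In the TFAP2A cells of D6 the lists held 2 genes past 2-fold, both higher and both epithelial regulators of 6 past the floor. *GRHL3*, a factor of surface ectoderm, was at 10.5 CPM against 0.660, and *ELF3*, an epithelial factor, at 23.4 against 11.6. The log2 ratio of *ELF3* was 1.01 [0.72, 1.29], an interval that reaches differences short of 2-fold. *GRHL3* passed the floor through the TFAP2A cells alone, so the floor set its direction. Of all 8884 genes past the floor, 0.619% were at least 2-fold higher in the TFAP2A cells. At D4 none of the list genes was past 2-fold in these cells. From D4 to D6 no list gene past the floor differed 2-fold in the embryonic gate. In the hypoblast gate *MARVELD3* and *CRB3* of the tight junction partners were at least 2-fold higher at D6, with *CRB3* at 67.1 CPM against 31.3, as were 2 of 8 epithelial regulators, *ST14* and *SPINT1*, and *TWIST1*. *ST14*, a membrane protease, was at 11.4 against 1.82, and *SPINT1*, an inhibitor of such proteases, at 52.6 against 21.7. *ST14* and *MARVELD3* passed the floor through D6 alone, so the floor set their direction. Of all 8848 genes past the floor in this gate, 2.64% were at least 2-fold higher at D6.

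Levels over the gates and days were also compared between genes by Pearson's r of log2 levels with 1 added, as a description, since the groups share libraries and TFAP2A cells are part of the embryonic gate. Over the 7 groups left without the 2 HAND1 cells of D4, r was -0.96 between *CDH1* and *CDH2*, 0.92 between *CDH1* and *CDH3*, 0.91 between *CDH1* and *CLDN10* and 0.85 between *CLDN6* and *EPCAM*. Over all 8 groups the genes most like each member were *RORA* for *CLDN3* at 0.992, *SNHG32* for *CLDN4* at 0.920, *CASC15* for *CLDN6* at 0.980, *TRNP1* for *CLDN7* at 0.977, *USP10* for *CLDN10* at 0.986, *ZRANB2* for *CDH1* at 0.993, *MYL6* for *CDH2* at 0.994, *MIAT* for *CDH3* at 0.988 and *SYNGR2* for *EPCAM* at 0.998. Of the 27 pairs formed by the 3 most alike genes of each member, 1 was also found over the 7 groups, *PLPP2* with *CLDN6*, so these lists rest on the 2 cells of D4.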

How the data were processed

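Count tables of 2 single-cell libraries, D4 and D6, were deposited by the authors as raw UMI counts per gene and cell, made with Cell Ranger (matrix header 6.0.1) against hg38, without normalization. The submitters' processing notes also name Seurat 4.0.1 and R 4.0.3. The 7 bisulfite libraries were not analysed here.

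The 9 genes, the gates and the other gene lists were chosen with earlier results of these data known. Kept cells met the UMI and mitochondrial limits of the study's methods. UMIs of a gene were summed over the cells of a gate and divided by all UMIs of those cells to give CPM. Intervals for levels are exact Poisson, for shares Clopper-Pearson and for log2 ratios conditional binomial. Reads without replicates allow no test. Thinning drew the lower UMI limit per cell without replacement, after gating. The rule for genes named beside the 9 took the 3 most alike by r among those with a mean of at least 20 CPM, of which the text prints the first and *PLPP2*, and up to 4 genes of a list and comparison by size of the log2 ratio among those past the floor. The alternatives changed the cell filter, depth, gates, measure of level, scaling, floor and HAND1 cells. The ratios and calls were also run on simulated gate totals drawn as Poisson counts. Those totals hold no spread between cells, so that run cannot show how the calls fare under such spread. Python 3.11.15, numpy 2.4.6, pandas 2.3.3 and scipy 1.17.1 were used. The values of some genes on the lists are not reported here.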

Additional observations from a re-analysis of the deposited data

Results flagged for a closer look

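*CDH2* was lower at D6 than at D4 in the embryonic gate, with a log2 ratio of -1.10. It changed little in the hypoblast gate, at 0.21, a gap of -1.31. *EPCAM* had log2 ratios of -0.04 and 0.69 in the same gates, a gap of -0.73. The log2 ratio of *CLDN7* between the embryonic and the hypoblast gate was 1.43 at D4 and -0.55 at D6, a gap of 1.98. That of *CLDN6* between TFAP2A cells and the rest of the embryonic gate was -0.19 at D4 and 0.09 at D6, a gap of -0.28, and its D6 value was -0.04 after thinning. With 1 library a day, none of these 4 differences was tested.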

How the results depend on the processing

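No paired analysis was possible because there was 1 library per day and the gates of a day come from the same library. Of 65 alternative values for the counts of genes past 2-fold and the *CDH2* share in HAND1 cells, 59 stayed close to the reported value. In the TFAP2A cells of D4 the count of 1 went to 0 with no cell filter, to 2 after thinning and to 2 with no floor. In the hypoblast gate between the days it went from 1 to 2 when scaled without mitochondrial and ribosomal genes and to 3 with no floor. The *CDH2* share in HAND1 cells of neither gate was 97.9% instead of 94.8%. Of 448 alternative log2 ratios of single members, none past 2-fold changed sign and 64 left the counting interval of the reported value, 384 staying within it. Against the embryonic gate, *CLDN3* in HAND1 cells went from -0.96 to -3.58 and *CLDN7* from -2.34 to -4.48 in cells with 10000 to 20000 UMIs, *EPCAM* to -2.37 and *CLDN6* to -2.71. With no cell filter *CLDN7* was -1.51. In cells of neither gate *EPCAM* was -2.93. In all HAND1 cells *CLDN10* was -0.66 after thinning, short of 2-fold. In those of neither gate it was -3.25 and *CDH1* was -4.61. The cause was not tested. The HAND1 comparison of D4, with 2 cells, and the TFAP2A comparison of D4 under stricter gates, with 3 cells, were not run. Depth limits *CLDN4*, *CDH1* and *CDH3* where they have few UMIs, and an absent UMI does not show an absent transcript.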

Other observations

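Cells with at least 10 UMIs of *CLDN10*, chosen after its values were seen, were found at D6 alone, 75 of 10097 kept cells against 0 of 9151 at D4. They held 33.0% of the *CLDN10* UMIs of that day, with up to 111 in 1 cell. Of the 75, 32 met the embryonic gate, 1 the hypoblast gate and 42 no gate, and 58 had a UMI of *TFAP2A*. Their median depth was 14209 UMIs against 12958 in the other kept cells. *ISL1*, a transcription factor found in amnion, was at 88.4 CPM against 2.77 in the other cells, and *DLX5*, a homeobox gene, at 44.2 against 0.384, so that these 75 cells held 49.5% of the day's *DLX5* UMIs. *GABRP* was at 2.60 against 0.878 from 3 UMIs, and *VTCN1* was at 0 in both. Of the other amnion markers, *TFAP2C* was at 82.4 against 6.25, *BMP4* at 104.9 against 11.75 and *MSX2* at 80.6 against 41.3. *HEY1*, from 1 UMI, was not higher, at 0.867 against 0.907. Among the other junction genes *CLDN4* was at 56.4 CPM against 2.72, *CDH1* at 147 against 58.4 and *CDH2* at 24.3 against 167. The other kept cells include the hypoblast gate, where *CDH2* was at 415 CPM. In the embryonic gate of D6 *CLDN4* was at 3.03, *CDH1* at 89.8 and *CDH2* at 20.1, so *CDH2* was not low beside that gate. Of the gate genes, *SOX2* had a UMI in 62.7% of the 75 cells and *FN1* in 61.3%, against 56.3% and 59.1% of the other kept cells. *HAND1* was at 85.8 CPM against 7.26, with a UMI in 37.3% of the 75 cells against 2.14% of the others.

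Cells of the embryonic gate with a UMI of *TBXT*, the primitive streak factor, numbered 7 at D4 and 25 at D6. In the 25, *CDH1* was at 79.2 CPM [55.5, 110] and *CDH2* at 39.6 [23.5, 62.6], with *EPCAM* at 385 [330, 446]. *CDH2* gave 33.3% [21.1, 47.5] of the UMIs of *CDH1* and *CDH2* in them, from 54 UMIs in all, against 18.3% in the whole gate. That interval leaves out the spread between cells, and 2 of the 25 cells held 55.6% of the 18 *CDH2* UMIs. A UMI of *CDH2* was seen in 7 of the 25, or 28% [12.1, 49.4], against 22.8% of the whole gate. At D4 the share was 26.7% [7.79, 55.1] in the 7 cells, against 49.8% in the whole gate.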
